A study of Mus musculus with 3 samples.

Results

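The genes described here are 10 genes of lysosomes and endosomes: Lamp1, Mcoln1, Tcirg1, Atp6v1a, Ctsf, Ctsw, Chmp2b, Snx4, Ehd1 and Unc93b1. They were picked by name among the 38205 gene identifiers of the tables, and each was found as a single row with an estimate marked OK in every library. Expression had been measured by RNA sequencing in LSK cells, cells negative for lineage markers and positive for Sca1 and c-Kit, a fraction of blood stem cells and multipotent progenitors. They had been sorted from fetal livers at E14.5, all of the C57Bl/6 strain, and the 3 libraries came from WT embryos, embryos hemizygous for a DNMT3B7 transgene and embryos homozygous for it. The transgene encodes a shortened DNMT3B, an enzyme that methylates DNA. What drives it, in which cells and in how many lines, is not given in the sources used here. Each library was made from the pooled cells of 4 to 5 embryos, so there is 1 library per genotype, no test and no replicate check, and every difference below is one between libraries. In pooled cells, fewer cells of a type and less RNA per cell cannot be told apart.

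Lysosomes are the acidic compartments in which cells break down material taken up from outside or delivered by autophagy. A proton pump, the V-ATPase, acidifies them, proteases such as the cathepsins work inside, and membrane proteins shield the boundary and release ions and products. Endosomes sort what the cell takes up: ESCRT complexes bud cargo inward for breakdown, while sorting nexins and EHD proteins form tubules that return receptors to the surface. In blood stem cells lysosomes are known to take part in quiescence and in the clearance of mitochondria. Many lysosomal genes carry the E-box CACGTG in their promoters, the centre of the CLEAR element bound by the factor TFEB. MYC and USF factors bind the same letters.

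The promoters of 4 of the 10 genes held this hexamer, and the stretches around it are shown because it is the feature best known from lysosomal genes. RefSeq windows (build GRCm38.p6) were matched by symbol for 7 of the 10 genes, and the 250 bases before each start site were searched on both strands. Ctsw, Ehd1 and Unc93b1 had no entry. Each CACGTG is in capitals, and each sequence is written 5′ to 3′ on the strand of the gene. The stretches lie at chr8:13159070-13159160 on the plus strand for Lamp1, chr8:3500418-3500509 on the plus strand for Mcoln1, chr16:44139355-44139420 on the minus strand for Atp6v1a and chr19:4855056-4855121 on the plus strand for Ctsf.
Lamp1: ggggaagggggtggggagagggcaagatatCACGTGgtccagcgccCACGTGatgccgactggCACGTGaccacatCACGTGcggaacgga
Mcoln1: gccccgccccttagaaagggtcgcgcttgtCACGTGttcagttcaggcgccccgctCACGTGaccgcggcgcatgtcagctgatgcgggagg
Atp6v1a: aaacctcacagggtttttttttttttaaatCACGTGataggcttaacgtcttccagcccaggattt
Ctsf: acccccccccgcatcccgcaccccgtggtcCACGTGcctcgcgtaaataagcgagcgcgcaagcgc

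Lamp1 had 4 copies within 52 bases, the nearest starting 15 bases before the start site. Of all 32851 windows in the table, 7 (0.0213%) held at least 4 copies of CACGTG, 141 (0.429%) at least 2 and 1978 (6.02%) at least 1. Mcoln1 had 2 copies, at 71 and 45 bases before the start, while Atp6v1a had 1 at 131 bases and Ctsf 1 at 79 bases. The longer form TCACGTGA, which contains CACGTG, was found in Mcoln1 and Atp6v1a and in 0.785% of all windows. A still longer form, with 1 more base at each end, was searched for too. That form was found in 0 of the 7 genes with a window and in 0.24% of all windows. The windows of Tcirg1 (3 start sites), Chmp2b and Snx4 did not contain CACGTG. A match is a description of the sequence, and no binding was measured here.

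All of these windows but 1 were richer in CpG than the median window of the table, which had 6 CpG in 250 bases. Mcoln1 had 21, Lamp1 14, Atp6v1a 8, and Ctsf, Chmp2b and Snx4 17 each. Of the Tcirg1 windows, those at the first and second start had 17 and 18 and the third had 2. The median over the windows of the genes compared below was 11. Methylation was not measured in these libraries.

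Values could be read by gene for part of the genome, and all 10 genes lay in that part. Ly6a and Kit, which encode Sca1 and c-Kit, were listed at 0 in the WT library, so the label of the sort could not be checked on them. Dnmt3b was outside the readable part too, at 0 (WT), 0.423 (hemizygous) and 1.31 (homozygous), so the transgene was not checked either. High values stood in runs up to a point on 11 chromosomes, and 1512 genes before these points or on the mitochondrial genome (4.62% of the identifiers other than small RNA genes) were compared. Mcoln1 and Lamp1 lay in the run on chromosome 8, Snx4, Atp6v1a and Chmp2b in the run on chromosome 16, and Unc93b1, Tcirg1, Ctsf, Ctsw and Ehd1 in the run on chromosome 19. Ehd1 was nearest to the end of its run, with 6 protein-coding genes between it and the end. The deposited FPKM were divided by 4245 in all libraries and are called values below. Ratios below are on this deposited scale, and the sign of several changes when libraries are scaled to equal sums, as given further down. Low values, taken with the median transcript length, implied about 3040000 (WT), 3020000 (hemizygous) and 2320000 (homozygous) fragments on listed genes. With the longest transcript the totals were about 5700000 (WT), 5950000 (hemizygous) and 4810000 (homozygous). Mitochondrial mRNAs made up 57.9%, 53.5% and 45.3% of the summed values in the same order.

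**Figure D1:**
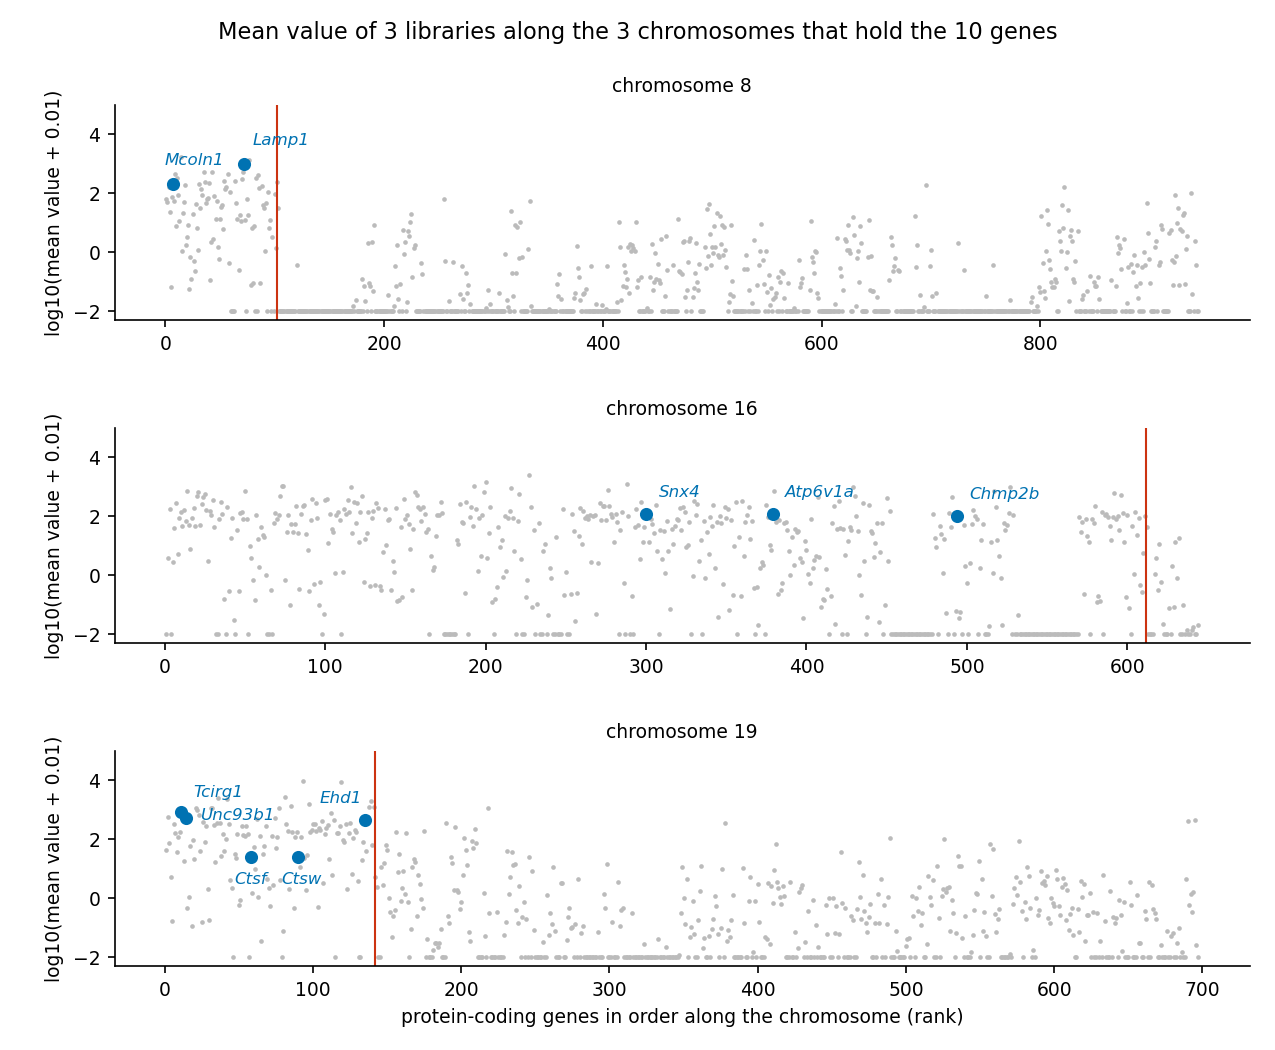
Mean value over the 3 libraries (log10 of value + 0.01) of protein-coding genes against their rank along chromosomes 8, 16 and 19; grey points are genes, blue points the named members, and the red line is the end of the run of high values. All 10 genes lie left of a line, and Ehd1 is the closest to its line.

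In the WT library the values of the 10 genes covered a 38.3-fold range. Lamp1, a heavily glycosylated protein that coats the inner face of the lysosomal membrane, was the highest at 994 (95% counting interval 966 to 1022), and ranked 32nd of the 1104 nuclear protein-coding genes compared. Tcirg1, the a3 subunit of the membrane part of the V-ATPase, followed at 922 (889 to 956). Unc93b1, which escorts the nucleic acid-sensing Toll-like receptors from the endoplasmic reticulum to endosomes, stood at 595 (564 to 627). Ehd1, an ATPase that shapes the tubules of recycling endosomes, stood at 414 (387 to 443). These genes with known roles in membrane, acidification and traffic were far above the median of 17.7 over the 1104 genes. They were also above the median of 72.1 over the 744 of them that had a WT value of at least 1.

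Mcoln1, the cation channel that releases calcium from lysosomes, was at 217 (196 to 241) in the WT library. Next came a group of 3 close to each other. Atp6v1a, the catalytic A subunit of the V-ATPase, was at 126 (118 to 134), Chmp2b, a subunit of ESCRT-III, at 115 (107 to 124) and Snx4, a sorting nexin of the recycling route, at 114 (105 to 124). The cathepsins were the lowest. Ctsf, cathepsin F, was at 27.1 (20.6 to 35.4) and Ctsw, cathepsin W, a protease known from natural killer and cytotoxic T cells, at 25.96 (21.2 to 31.5). Both lay between the medians of 17.7 and 72.1.

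Neighbours in this order did not always differ beyond counting error. Atp6v1a over Chmp2b was 1.09-fold (0.992 to 1.204), Chmp2b over Snx4 1.01-fold (0.907 to 1.12) and Ctsf over Ctsw 1.04-fold (0.753 to 1.44). With the longest transcript in place of the median length, which gives more fragments, Atp6v1a over Chmp2b passed and the other pairs did not. The remaining steps were beyond counting error, the smallest being Lamp1 over Tcirg1 at 1.08-fold (1.03 to 1.13). The widest step was from Snx4 down to Ctsf, 4.22-fold (3.21 to 5.55). The order in the other libraries differed at 3 places. Snx4 stood above Atp6v1a and Chmp2b in both transgenic libraries, and in the homozygous library Ehd1 stood above Unc93b1 and Ctsw above Ctsf. The counting intervals of the single values overlapped in each of these reorderings except for Snx4 over Chmp2b in the homozygous library. Such an overlap does not place a ratio within counting error. The interval of the ratio, used above for the WT library, was not computed for the reordered pairs.

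**Figure D2:**
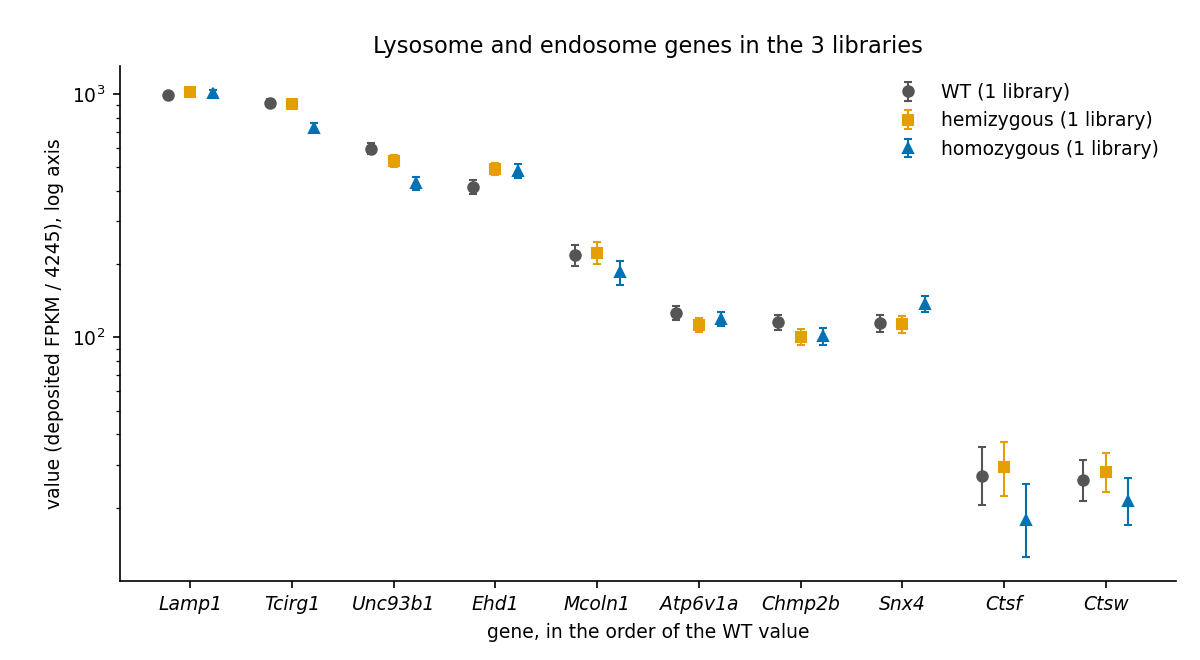
Value (deposited FPKM divided by 4245, log axis) of each of the 10 genes in the WT (grey circles), hemizygous (orange squares) and homozygous (blue triangles) library, with bars for the 95% counting interval. Lamp1 is close to 1000 in each library, and Ctsf and Ctsw are below 30.

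Among the proteins of the lysosomal membrane, Lamp1 differed little between libraries. It was at 994 (WT), 1016 (hemizygous) and 1006 (homozygous), and its highest value was 1.02 times its lowest. Its log2 ratio was 0.02 for homozygous versus WT (95% counting interval -0.04 to 0.07) and 0.03 for hemizygous versus WT (-0.02 to 0.09). Mcoln1 was at 217 (WT), 222 (hemizygous) and 185 (homozygous). The homozygous library was the low one, with a log2 ratio of -0.23 to WT (-0.45 to -0.01) and -0.26 to the hemizygous library (-0.48 to -0.05). The ratio of Lamp1 to Mcoln1, which does not depend on how libraries are scaled, came to 4.58 (WT), 4.57 (hemizygous) and 5.44 (homozygous), a log2 difference of 0.25 for homozygous versus WT (0.02 to 0.48). Exons of Lamp1 share 249 bases (9.31% of its exon bases) with Grtp1 on the opposite strand, whose values were 8.49, 12.04 and 16.4 in the same order.

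Of the V-ATPase, a pump built from a membrane part (V0) and a cytosolic part (V1), Tcirg1 was lower in the homozygous library on the deposited scale, and Atp6v1a there did not differ from WT beyond counting error. Tcirg1 was at 922 (WT), 912 (hemizygous) and 727 (homozygous). The WT and hemizygous libraries did not differ beyond counting error, at a log2 ratio of -0.02 (-0.09 to 0.06). For homozygous versus WT it was -0.34 (-0.42 to -0.26), and for homozygous versus hemizygous -0.33 (-0.40 to -0.25). Atp6v1a was at 126 (WT), 113 (hemizygous) and 119 (homozygous), with log2 ratios to WT of -0.16 (-0.29 to -0.03) and -0.08 (-0.21 to 0.06). The ratio of Tcirg1 to Atp6v1a was 7.32 (WT), 8.09 (hemizygous) and 6.09 (homozygous). Its log2 difference for homozygous versus WT was -0.26 (-0.42 to -0.11) and for homozygous versus hemizygous -0.41 (-0.57 to -0.25).

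Both cathepsins, cysteine proteases of the papain family, had their lowest value in the homozygous library. Ctsf was at 27.1 (WT), 29.3 (hemizygous) and 17.8 (homozygous), the widest spread of the 10 genes, with a highest value 1.64 times the lowest. These values rested on an estimated 55.6, 63.4 and 34.8 fragments at the median transcript length. For Ctsf the log2 ratio of homozygous to WT was -0.58 (-1.16 to 0.01), and it was -0.69 for homozygous to hemizygous (-1.26 to -0.12). With the longest transcript the first interval ran from -0.88 to -0.27.

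Ctsw was at 25.96 (WT), 27.95 (hemizygous) and 21.4 (homozygous), and the log2 ratio of homozygous to WT was -0.27 (-0.67 to 0.13). All 3 counting intervals of its values overlapped. Of the 13 other genes listed as markers of natural killer and T cells, Ncr1 alone was among the genes compared, with values between 0.062 and 0.068, and the part of such cells in the result was not tested. Ctsw and Fibp share 9 exon bases on opposite strands, and Fibp was at 183, 176 and 173. The ratio of Ctsf to Ctsw, 1.04, 1.05 and 0.833, did not differ beyond counting error, with a log2 difference of -0.32 for homozygous versus WT (-1.06 to 0.42).

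The endosomal genes went separate ways. Chmp2b was at 115 (WT), 100.2 (hemizygous) and 101 (homozygous), so both transgenic libraries were below WT. Its log2 ratios to WT were -0.20 (-0.35 to -0.05) and -0.19 (-0.34 to -0.04). Ehd1 showed the opposite order, with 414 (WT), 492 (hemizygous) and 484 (homozygous). Its log2 ratios to WT were 0.25 (0.12 to 0.38) and 0.22 (0.09 to 0.36), and the transgenic libraries did not differ from each other beyond counting error (-0.02, interval -0.15 to 0.10).

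Snx4 was highest in the homozygous library, at 137, against 114 (WT) and 113 (hemizygous). The log2 ratio was 0.26 to WT (0.11 to 0.41) and 0.28 to the hemizygous library (0.12 to 0.43). Of the 50-base stretches of its transcripts, 7.06% also occur in other genes, chiefly AC154707.2. The ratio of Ehd1 to Snx4 was 3.62, 4.35 and 3.53 in the WT, hemizygous and homozygous libraries, and differed from WT beyond counting error in the hemizygous library (log2 0.26, interval 0.06 to 0.47) and not in the homozygous library (-0.04, interval -0.24 to 0.17).

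Unc93b1 was the one gene of the 10 whose 3 counting intervals were all apart, with 595 (WT), 532 (hemizygous) and 430 (homozygous). The order was stepwise, WT above hemizygous above homozygous. The log2 ratio was -0.16 for hemizygous versus WT (-0.27 to -0.05), -0.31 for homozygous versus hemizygous (-0.43 to -0.19) and -0.47 for homozygous versus WT (-0.59 to -0.35). Relative to Lamp1, a gene of nearly level values on the deposited scale, Unc93b1 was at 0.599 (WT), 0.523 (hemizygous) and 0.427 (homozygous). That is a log2 difference of -0.49 for homozygous versus WT (-0.62 to -0.35). With Lamp1 level on that scale, it is no separate support for the ratio of Unc93b1. The Toll-like receptors it escorts (Tlr3, Tlr7, Tlr8, Tlr9 and Tlr13) were not among the genes compared.

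None of the 10 genes passed a 2-fold difference in any comparison. Over all genes measured, meaning that either library reached a value of 1, 45 of 969 (4.64%) passed it for homozygous versus WT, 29 of 969 (2.99%) for hemizygous versus WT and 43 of 978 (4.4%) for homozygous versus hemizygous. With 1 added to each value, differences below 1.5-fold were found for all 10 genes in both comparisons with WT and for 9 of 10 between the transgenic libraries, Ctsf being the exception. Ctsf was at this limit in homozygous versus WT too, at a log2 ratio of -0.58, and past it at -0.60 with a pseudocount of 0.1. Among all genes measured differences below 1.5-fold made up 87.6%, 91.5% and 87.9%. The 10 genes are therefore described by small differences, and their size can be set against counting error only.

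A counting interval that excluded 0 was found for 6 of the 10 genes in homozygous versus WT, where 34.3% of all genes measured had one (42.5% of the 694 genes that reached 15 in either library). Of the 6, Snx4 and Ehd1 were higher (14.7% of all genes were) and Mcoln1, Tcirg1, Chmp2b and Unc93b1 lower (19.6%). In hemizygous versus WT there were 4 of 10, Ehd1 higher (17.8% of all genes) and Atp6v1a, Chmp2b and Unc93b1 lower (14.8%), against 32.5% of all genes measured and 39.7% of those at 15 or above. In homozygous versus hemizygous there were 5 of 10, Snx4 higher (9.51% of all genes) and Mcoln1, Tcirg1, Ctsf and Unc93b1 lower (21.3%), against 30.8% and 35.0%. With 10 genes, nothing is read from these shares about the group. The comparisons share libraries, so their counts are not independent of each other.

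The median log2 ratio of the 10 genes was -0.21 for homozygous versus WT, against -0.04 over all genes measured. It was 0.01 against 0.02 for hemizygous versus WT and -0.14 against -0.06 for homozygous versus hemizygous. In homozygous versus WT, the ratios of the same 694 genes ran from -0.60 at the 5th percentile to 0.40 at the 95th, and all 10 genes lay inside that range. Ctsf was above 5.19% of these genes, Unc93b1 above 6.92% and Tcirg1 above 11.5%. At the other end Ehd1 was above 88.8% and Snx4 above 90.6%, while Lamp1 stood near the middle, above 59.2%. In hemizygous versus WT all 10 genes lay inside the range from the 5th to the 95th percentile, -0.32 to 0.41. In homozygous versus hemizygous this range was -0.51 to 0.28, and Ctsf lay outside it at -0.69, above 2.58% of 698 genes.

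**Figure D3:**
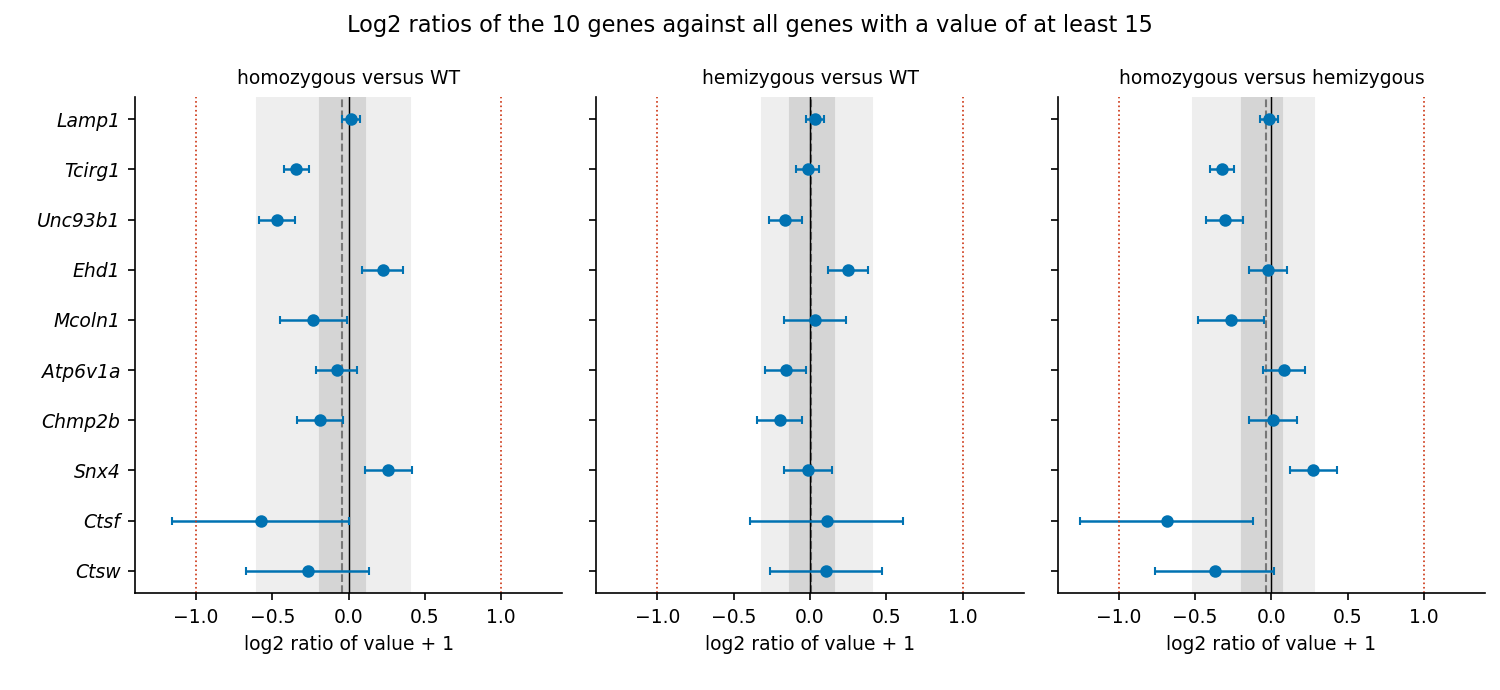
Log2 ratio of value + 1 of the 10 genes (blue points, bars for the 95% counting interval) in the 3 comparisons; the grey bands reach from the 5th to the 95th percentile and between the quartiles of all genes that reached 15, the dashed line is their median and the red dotted lines mark 2-fold. In homozygous versus WT all 10 points lie within the wider band, from -0.58 for Ctsf to 0.26 for Snx4. In homozygous versus hemizygous Ctsf, at -0.69, lies outside it.

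Genes of the same chromosome had ratios of both signs. In homozygous versus WT the median over genes measured was -0.02 on chromosome 8 (105 genes), -0.04 on chromosome 16 (504 genes) and -0.07 on chromosome 19 (140 genes). Relative to the median of their own chromosome, Ctsf was at -0.50, Unc93b1 at -0.39, Tcirg1 at -0.27 and Ctsw at -0.19, while Ehd1, on the same chromosome, was at 0.30. Snx4 was at 0.30 and Chmp2b at -0.15 relative to chromosome 16.

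The sign of several ratios depended on how the libraries were scaled. Median-ratio scaling over the genes compared moved the median of all genes by 0.04 for homozygous versus WT and kept the sign of each of the 10 ratios. With it the intervals of Mcoln1 and Chmp2b included 0 and that of Lamp1, at 0.06, did not, so 3 genes were higher and 2 lower beyond counting error. For hemizygous versus WT this scaling changed no sign. For homozygous versus hemizygous it changed the sign of Lamp1, from -0.02 to 0.05, and of Ehd1, from -0.02 to 0.04. An alternative chosen after seeing the data gave all libraries an equal sum of listed values other than small RNA genes. It moved the median of all genes for homozygous versus WT by 0.39. Under it 8 of the 10 genes had a ratio above 0, Tcirg1 at 0.07, Mcoln1 at 0.18, Chmp2b at 0.22 and Ctsw at 0.13 among them, and Unc93b1 was at -0.05 and Ctsf at -0.18. Snx4 and Ehd1 were at 0.67 and 0.64. With all listed values in the sum, small RNA genes included, the median moved by 0.62 and all 10 ratios were above 0. Under both sums the count of genes lower with an interval that excluded 0 went from 4 to 0. For hemizygous versus WT, 7 and 10 of the 10 ratios were above 0 under these sums in place of 5, and for homozygous versus hemizygous 6 and 8 in place of 3. The split of genes past 2-fold, 23 higher and 22 lower as deposited, became 46 and 11 under the first of these sums and 79 and 4 under the second. For hemizygous versus WT the split was 20 and 9 as deposited, 23 and 6 under the first sum and 26 and 5 under the second, and for homozygous versus hemizygous it was 16 and 27, 30 and 15, and 36 and 11. Both of these sums include the mitochondrial mRNAs. Equal totals of nuclear values over the genes compared moved the median for homozygous versus WT by 0.07. No sign of the 10 ratios changed there, and 3 genes were higher and 2 lower beyond counting error. For hemizygous versus WT the signs of Tcirg1 and Snx4 changed, both from -0.02 to 0.04. For homozygous versus hemizygous that of Lamp1 changed, from -0.02 to 0.01. A scaling adds nearly the same shift to the log2 ratio of each gene, so the order of the 10 genes and their place relative to the median gene are set by its construction and are no sign of stability.

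**Figure D4:**
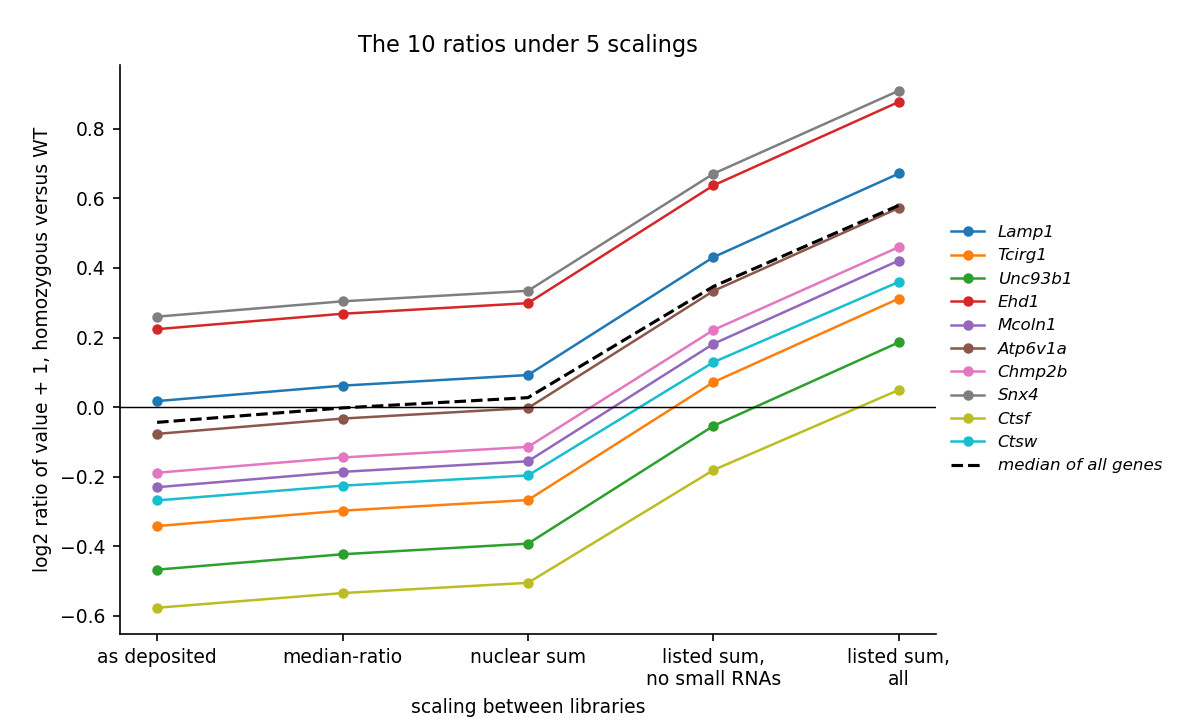
Log2 ratio of value + 1 for homozygous versus WT of each of the 10 genes (coloured lines) and the median of all genes measured (black dashed line) under 5 scalings between libraries; lines join points of the same gene. The ratios shift together, as a scaling does by construction, and the sign of Tcirg1 changes from -0.34 as deposited to 0.07 with the listed sum without small RNAs.

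Other genes of lysosomes and endosomes were taken from 10 lists with 315 entries. Of these, 22 genes beside the 10 were among the genes compared, and 21 reached a value of 1. In homozygous versus WT 1 of the 21 was past 2-fold higher and 1 lower, where 2.37% and 2.27% of all genes measured were. Their median log2 ratio was -0.04, the same as that of all genes at this precision. In hemizygous versus WT none of the 21 was past 2-fold, against 2.06% of all genes higher and 0.929% lower, and the median was 0.07. In homozygous versus hemizygous 1 was higher (1.64% of all genes) and none lower (2.76%), and the median was -0.08.

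The gene past 2-fold higher was Rhod, a small GTPase of endosomes, at 2.68 (WT), 2.53 (hemizygous) and 7.66 (homozygous). Its log2 ratio was 1.23 to WT (0.47 to 1.99) and 1.29 to the hemizygous library (0.54 to 2.05). Stfa2, a stefin, which inhibits cysteine cathepsins, was the gene past 2-fold lower, at 4.51, 3.20 and 1.18. Its interval for homozygous versus WT reached from -3.07 to 0.39, so the difference was not detectable at this depth. Stfa1, of the same family, was at 332, 330.3 and 313. The stefin genes are near-identical copies, so the split of reads among them is uncertain.

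The abundant genes of the lists showed small differences. Tfrc, the transferrin receptor that recycles through endosomes, was at 1280 (WT), 1414 (hemizygous) and 1013 (homozygous), with log2 ratios to WT of 0.14 (0.07 to 0.21) and -0.34 (-0.41 to -0.26). Ap2m1, a subunit of the clathrin adaptor at the plasma membrane, was at 1001, 1174 and 1096 and higher than WT in both transgenic libraries, by 0.23 (0.14 to 0.32) and 0.13 (0.03 to 0.23). Rab1b, a GTPase of traffic from the endoplasmic reticulum, was at 500.2, 532 and 514. Nagpa, the enzyme that uncovers the mannose 6-phosphate tag of lysosomal enzymes, was at 233, 202.05 and 202.1, with log2 ratios to WT of -0.20 (-0.32 to -0.08) and -0.20 (-0.33 to -0.08).

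Among the sorting nexins, 5 members beside Snx4 were measured and none passed 2-fold. Snx15 was at 190 (WT), 223 (hemizygous) and 206 (homozygous), and Snx9, which acts in clathrin-mediated uptake, at 150.4, 157 and 142. Of the ESCRT list Chmp4c was the other gene compared, and it stayed below 1. For the cathepsins, the V-ATPase and the endosomal receptors no gene beyond the members was among those compared, and none of the 19 genes of the TFEB and mTORC1 list was.

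**Figure D5:**
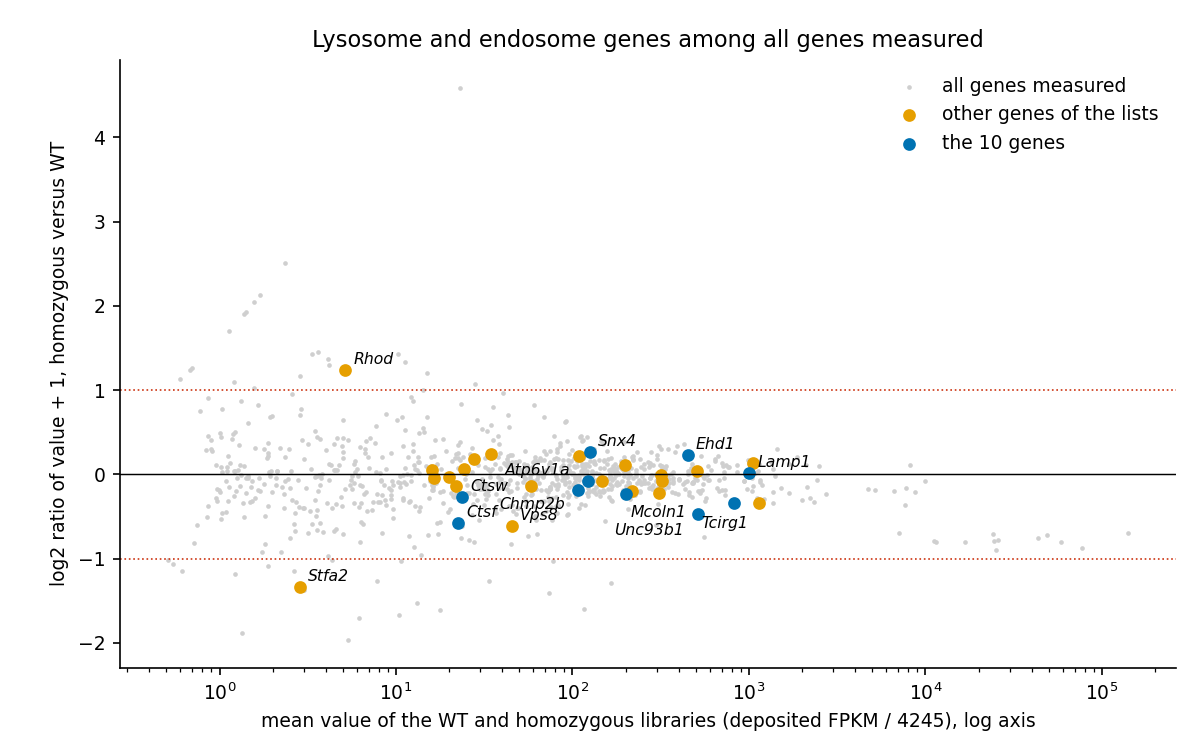
Log2 ratio of value + 1 for homozygous versus WT against the mean value of both libraries (log axis) for all genes measured (grey), the 21 other genes of the lists (orange) and the 10 genes (blue); red dotted lines mark 2-fold. Rhod at 1.23 and Stfa2 at -1.34 are the genes of the lists outside the lines, and none of the 10 is.

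Summed levels of markers of other cells also differed between libraries. Summed over the members compared, the B lineage list (3 of 8 genes) was at 517 (WT), 400.4 (hemizygous) and 192 (homozygous), and the vessel wall list (2 of 10) at 52.6, 68.1 and 99.3. The erythroid list (4 of 11) was at 3987, 4012 and 3285, the neutrophil list (5 of 13) at 457.01, 457.1 and 449, and the megakaryocyte list (2 of 9) at 21.999, 20.8 and 34.9. In that list Gp5 was higher in the homozygous library than in WT, at a log2 ratio of 0.83 (0.54 to 1.12). Gp1bb, the other gene of the list compared, was not, at -0.17 (-0.81 to 0.46), so the higher sum rested on Gp5. The neutrophil sum was mostly Stfa1. For homozygous versus WT, Mmp8 of that list was lower at -0.76 (-1.37 to -0.14). Stfa1, Stfa2, Stfa3 and BC117090 did not differ beyond counting error. Of the erythroid list, Tfrc (-0.34), Car2 (-0.30) and Cpox (-0.11) were lower in that comparison and Car1 was higher, at 0.24 (0.003 to 0.48). The hepatocyte list (4 of 13) was between 3.82 and 4.81, with Fetub and Hrg at 0. No gene of the macrophage list was among those compared. The part of these cells in the differences of Tcirg1, Unc93b1, Snx4, Ehd1 and the cathepsins was not tested.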

How the data were processed

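Each library came as 1 table of FPKM per gene, deposited by the authors with a status flag, per the file headers. The submitters' processing notes list TopHat2, Bowtie2, Cufflinks and mm9 (no versions). The annotation, its strandedness and the fragment length were not given in the sources used here. Of repeated identifiers, the highest row was kept. The 10 genes and all lists were chosen with earlier results of these data known.

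Deposited FPKM summed to far more than the unit allows and were divided by 4245, set on sums without small RNA genes. The sum planned at first held them. GENCODE M21 (GRCm38) matched 36463 of 38205 identifiers (95.4%) for gene types, order and lengths. On each chromosome a break was fitted by maximum likelihood, on whether mean FPKM reached 200000, and kept at a log likelihood gain of at least 5. The genes ahead of a break were compared.

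Ratios are log2 of value + 1, so low genes appear to differ less than they do. In single-transcript genes of 1000 to 10000 bases, 69.8% to 72.8% of low values were whole multiples of a unit within 0.05. The unit was picked in each library for the highest such share, and 10% is the chance share for a unit fixed beforehand. This unit served as the fragment, over the median transcript length less 200 bases. Counting intervals (95%, exact Poisson for levels, normal approximation for ratios) come from these fragments. They cover counting error only, not embryos or library making. The 15 used for ranks of ratios was chosen after seeing the data. Named list genes were the 2 highest of each list and any past 2-fold, and Snx29 and Vps8 were added for the size of their differences. Alternatives covered scaling, pseudocount, minimum value, gene set and transcript length. Python 3.11.15, pandas 2.3.3 and scipy 1.17.1 were used, and the steps were tested on simulated data.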

Additional observations from a re-analysis of the deposited data

How the results depend on the processing

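No paired analysis was possible because each genotype had 1 library and the labels give no replicate numbers. The count of the 10 genes past 2-fold was 0 in all 3 comparisons under every scaling, pseudocount, minimum and gene set tried. The count over all genes depended on the settings. For homozygous versus WT, 45 became 83 with equal sums of all listed values, 11 with a pseudocount of 5, 24 with a minimum of 5 and 1214 when genes outside the readable runs were included. For hemizygous versus WT, 29 became 47 with a pseudocount of 0.1, 6 with 5, 11 with a minimum of 5 and 1431 with all genes. For homozygous versus hemizygous, 43 became 76, 9, 19 and 1456 under the same settings. The pseudocount changed the sign of none of the 10 ratios, and moved them by at most 0.099. Over 10 genes, 3 comparisons and 4 scalings, the sign changed in 32 of 120 ratios. With the longest transcript the interval excluded 0 for 7, 4 and 6 of the 10 genes in place of 6, 4 and 5. Depth limits the cathepsins most, Ctsf with an estimated 34.8 to 63.4 fragments at its median transcript length. With the longest transcript Ctsf has 129.2 to 235.5 and Ctsw 111.7 to 162.0.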
